A study of Mus musculus with 14 samples.

Results

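The sarcomeric myosin heavy chain genes Myh1, Myh2, Myh3, Myh4, Myh6, Myh7, Myh7b and Myh8 were read out of the deposited RNA-seq tables by their gene names, which gave 8 of the 49585 genes of each table. Membership rests on the gene name, and the family was picked with earlier results of these data known. RNA came from hind limb skeletal muscle of mice without injury and with injury, wild type (WT) or Myf6 KO (knockout), and the 4 groups have 3 libraries each. The protein of Myf6, for which MRF4 is another name, belongs to the myogenic transcription factors, which bind DNA at the E-box. A peak list from ChIP-seq of Flag-tagged Myf6 in primary myotubes, grown from satellite cells of adult muscle, with 1 library and 1 control, came with the RNA data. The labels name the genotype only as Myf6 KO and give no allele, strain, age or muscle, nor how or when the limb was injured. A number and a limb letter label each RNA library, and the same 3 numbers recur with L in the uninjured and R in the injured group of a genotype, so they are read here as naming the animal. The 6 animals therefore give 1 uninjured and 1 injured limb each. WT and KO are different animals, so genotype cannot be told apart from litter or batch, nor from strain, which is not given. The p-values measure the spread between these libraries.

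A myosin heavy chain forms the rod and the motor head of the thick filament, and the kind of heavy chain a fibre makes sets how fast it shortens. In adult mouse limb muscle Myh4 encodes the fastest chain (type IIb), Myh1 type IIx, Myh2 type IIa and Myh7 the slow chain of type I fibres, which is also the beta chain of the heart. Myh6 encodes the alpha chain of the heart, Myh3 and Myh8 encode the embryonic and perinatal chains of developing and regenerating muscle, and Myh7b is an ancient slow-type gene whose protein is made in few muscles.

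Each RNA library held between 1880087 and 49392472 reads, with a median of 26499858, so that 3 reads, taken as the floor of detection, correspond to 0.0607 to 1.60 RPM (a gene's reads scaled so that a library sums to 1000000). The highest floor belonged to uninjured WT replicate 2. Mitochondrial genes took 3.63% to 23.2% of the reads. Myf6 itself ranged from 25.0 to 120.7 RPM in the 6 WT libraries and from 1.86 to 3.46 RPM in the 6 KO libraries, without overlap. Skeletal fibre markers (Ckm, Acta1, Ttn, Neb, Mb and Des) summed to at least 29757 RPM in every library. The 8 heart markers summed to between 3.31 and 7.38 RPM, with the atrial light chain Myl7 and the cardiac factor Nkx2-5 at 0 reads in all 12 libraries, and skeletal fibre markers thus stood far above heart markers.

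The genes lie in 3 places in the mouse genome (RefSeq annotation of GRCm38.p6). There are 5 that stand in a row on chromosome 11 on the plus strand, in the order Myh3 (chr11:67078273-67102291), Myh2 (chr11:67171027-67197517), Myh1 (chr11:67200102-67224577), Myh4 (chr11:67237812-67260447) and Myh8 (chr11:67277124-67308634). Myh6 (chr14:54941921-54968017) and Myh7 (chr14:54970684-54994626) are neighbours on the minus strand of chromosome 14, and Myh7b (chr2:155611243-155634307) lies on the plus strand of chromosome 2. Because the handling of reads with several matches and of strand is not given in the sources used here, the split of reads between such close relatives, Myh6 and Myh7 above all, is uncertain.

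The RefSeq promoters of Myh6 and Myh7, from 250 bases before to 50 after the start site, are shown because these genes differed most between the genotypes. Both are written 5′ to 3′ on the minus strand, with capitals at each E-box, CANNTG, the motif that myogenic factors bind. The Myh6 window is chr14:54966558-54966857, and the Myh7 window, for the more downstream of its 2 RefSeq starts, is chr14:54994500-54994799.
Myh6: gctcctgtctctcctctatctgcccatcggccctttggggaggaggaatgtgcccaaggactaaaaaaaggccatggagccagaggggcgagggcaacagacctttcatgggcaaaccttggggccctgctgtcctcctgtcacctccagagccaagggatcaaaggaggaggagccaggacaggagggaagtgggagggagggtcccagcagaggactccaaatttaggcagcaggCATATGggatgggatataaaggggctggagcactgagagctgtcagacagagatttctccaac
Myh7: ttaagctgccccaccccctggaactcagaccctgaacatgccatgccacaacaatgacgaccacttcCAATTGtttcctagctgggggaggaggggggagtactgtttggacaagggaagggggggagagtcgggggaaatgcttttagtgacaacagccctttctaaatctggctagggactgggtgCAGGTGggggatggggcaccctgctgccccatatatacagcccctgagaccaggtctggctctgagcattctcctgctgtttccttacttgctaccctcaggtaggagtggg
Myh6 holds 1 E-box and Myh7 holds 2. CANNTG, which reads the same on both strands, occurs in 6 of the 8 members and in 72.3% of the 32851 RefSeq promoters of this length. The narrower E-box CAGCTG occurs in Myh4 alone among the members and in 16.3% of promoters, and CACCTG, searched on both strands, occurs in Myh7 and Myh7b and in 20.2% of promoters.

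The fast and perinatal genes of chromosome 11 share longer stretches with each other. The following stretches of the plus strand are shown because the shared runs set Myh1, Myh2, Myh4 and Myh8 apart from other promoters. Their windows are chr11:67170837-67170930 for Myh2, chr11:67199877-67199970 for Myh1, chr11:67237589-67237682 for Myh4 and chr11:67277005-67277098 for Myh8, and capitals mark the runs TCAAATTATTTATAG and TTCTAATTATATCC.
Myh2: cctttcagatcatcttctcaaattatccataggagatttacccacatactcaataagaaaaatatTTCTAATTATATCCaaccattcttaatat
Myh1: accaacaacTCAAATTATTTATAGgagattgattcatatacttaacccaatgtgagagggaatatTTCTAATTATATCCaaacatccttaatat
Myh4: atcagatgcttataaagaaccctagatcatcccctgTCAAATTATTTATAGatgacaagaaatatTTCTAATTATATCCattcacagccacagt
Myh8: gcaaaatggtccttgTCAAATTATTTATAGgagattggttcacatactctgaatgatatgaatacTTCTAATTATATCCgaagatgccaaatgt
The 14-base run TTCTAATTATATCC was found on either strand in 4 of the 32851 promoters, and these are the 4 shown. The 15-base run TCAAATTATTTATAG was found on either strand in 3 promoters, those of Myh1, Myh4 and Myh8. The runs were picked as the longest that these promoters share, so their rarity elsewhere is a description. Neither run is in the Myh3, Myh6, Myh7 or Myh7b windows.

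There are 3 members that carry a microRNA within their span, and the mature forms are shown, with the seed (bases 2 to 8) in capitals, because the pair hosted by Myh6 and Myh7 share a seed.
mmu-miR-208a-3p, host Myh6: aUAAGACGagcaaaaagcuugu
mmu-miR-208b-3p, host Myh7: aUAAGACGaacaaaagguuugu
mmu-miR-499-5p, host Myh7b: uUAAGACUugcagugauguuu
The seed of the miR-208 pair is UAAGACG and that of miR-499-5p is UAAGACU. These libraries measure long RNA, and over all 12 libraries the hairpin genes had 4 reads for Mir208a, 0 for Mir208b and 0 for Mir499, so no level is given for them.

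Myh4 dominated the family in every library. The 8 genes together took between 4.33% and 9.56% of the reads, and Myh4 took between 89.4% and 97.9% of that sum. Levels are given in RPM, which is not corrected for transcript length. Myh4 stood above Myh8 in all 4 groups with no overlap of the 3 libraries, and in uninjured WT muscle the order then ran Myh8, Myh1, Myh2, Myh7, Myh7b, Myh3 and Myh6. In that group Myh1 and Myh2 overlapped, as did Myh3 and Myh6, while each of the other neighbours was separated. In both KO groups Myh6 moved up to sixth place, below Myh7 with overlap and above Myh7b without overlap.

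**Figure D1:**
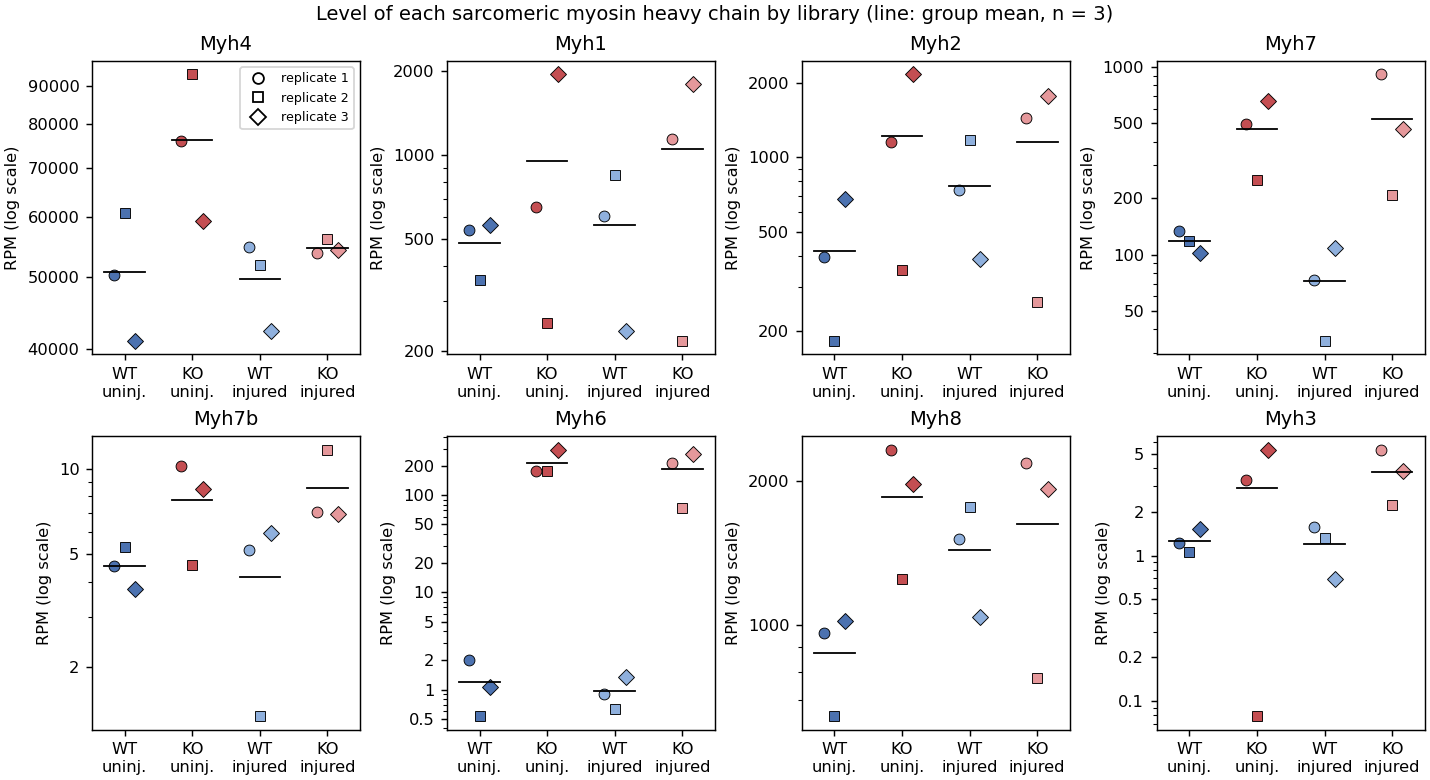
Level of each myosin heavy chain gene in RPM, on a log axis, by group, with 1 point per library (shape: replicate) and a line at the mean of 3 libraries. Myh6 is the gene whose KO libraries, 74.7 to 296 RPM, sit far above all WT libraries, 0.532 to 2.03 RPM. The square of KO replicate 2 is the lowest KO point for Myh1, Myh2, Myh3, Myh6, Myh7 and Myh8 in both states.

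Among the fast genes of adult muscle, Myh4 was 50202, 60748 and 40979 RPM in uninjured WT replicates 1 to 3 and 75917, 93275 and 59418 RPM in uninjured KO. After injury it was 54832, 51848 and 42323 RPM in WT and 53719, 56066 and 54210 RPM in KO. The genotypes overlapped in both states, and the 3 uninjured KO libraries were all above the 3 injured KO libraries.

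Myh1, the IIx chain, was 542, 358 and 561 RPM in uninjured WT and 654, 252 and 1950 RPM in uninjured KO. It was 605, 853 and 234 RPM in injured WT and 1141, 216 and 1799 RPM in injured KO. KO replicate 2 was below every WT library but injured WT replicate 3 in the uninjured limb, and below all of them in the injured limb, while KO replicate 3 was above all WT libraries in both.

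Myh2, the IIa chain, was 397, 181 and 681 RPM in uninjured WT and 1152, 352 and 2158 RPM in uninjured KO. It was 739, 1172 and 387 RPM in injured WT and 1438, 260 and 1767 RPM in injured KO. The order of the KO animals was that of Myh1, with replicate 2 low and replicate 3 high in both limbs, and the genotypes overlapped.

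Of the slow and cardiac genes, Myh7 was 134, 119 and 102 RPM in uninjured WT and 496, 249 and 661 RPM in uninjured KO. In the injured limbs it was 73.1, 34.6 and 109 RPM in WT and 913, 209 and 469 RPM in KO. Every KO library was above every WT library, in both states, and the ratio of the group means was 3.97 uninjured and 7.35 injured.

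Myh6 was 2.03, 0.532 and 1.05 RPM in uninjured WT, from 63, 1 and 32 reads, and 180, 176 and 296 RPM in uninjured KO. In injured WT it was 0.900, 0.636 and 1.34 RPM, from 12, 17 and 35 reads, and in injured KO it was 215, 74.7 and 267 RPM. The groups did not come near each other, with ratios of the means of 180 uninjured and 194 injured. The single read of uninjured WT replicate 2 allows up to 2.96 RPM by its exact Poisson interval of 95%, which covers counting error only and still lies below every KO library.

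Set against its neighbour, Myh6 stood at 0.448 to 1.84 reads per 100 Myh7 reads in the 6 WT libraries and at 23.5 to 70.5 in the 6 KO libraries. The 2 genes therefore differed between the genotypes by unequal amounts in the same libraries. In RPM, Myh7 was above Myh6 in every library of both genotypes.

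Myh7b was low throughout, at 4.54, 5.32 and 3.79 RPM in uninjured WT and 10.2, 4.57 and 8.49 RPM in uninjured KO. It was 5.18, 1.35 and 5.93 RPM in injured WT and 7.07, 11.7 and 6.90 RPM in injured KO. The genotypes overlapped in the uninjured limbs and did not overlap in the injured limbs.

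Of the developmental genes, the perinatal Myh8 had the highest group mean after Myh4 in all 4 groups. Its libraries overlapped those of Myh2, the next member, in every group but uninjured WT, where Myh1 came next without overlap. Myh8 was 965, 646 and 1019 RPM in uninjured WT and 2322, 1246 and 1969 RPM in uninjured KO, with no overlap. In the injured limbs it was 1509, 1762 and 1038 RPM in WT and 2173, 778 and 1918 RPM in KO, and these overlapped.

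The embryonic Myh3 was low in WT muscle, at 1.22, 1.06 and 1.52 RPM uninjured and 1.58, 1.31 and 0.689 RPM injured, from 2 to 46 reads, and it was higher in the injured limb of 2 of 3 WT animals. In KO it was 3.31, 0.0787 and 5.35 RPM uninjured and 5.30, 2.21 and 3.81 RPM injured. The second of these uninjured KO values rests on 1 read, and the uninjured genotypes overlapped for that library alone, whereas the injured genotypes did not overlap.

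KO against WT was tested with limma on log2(RPM + 1) over all genes, and changes are KO minus WT on that scale. In uninjured muscle 1 of the 8 members passed an adjusted p of 0.05, against 0.281% of the 12460 genes tested. That was Myh6, with a change of 6.64 (SE 0.36, limma adjusted p = 0.000206). Myh7 changed by 1.88 (SE 0.36, limma adjusted p = 0.0694) and Myh8 by 1.05 (SE 0.32, limma adjusted p = 0.196), both past an unadjusted 0.05 and not past the adjusted threshold. The other 5 differences were positive, from 0.45 for Myh3 to 1.38 for Myh2 (SE 0.66, adjusted p = 0.383), and did not pass. The median over all genes was −0.18, which edgeR and DESeq2, with their own scaling, moved to 0.00 and 0.01. Every KO library stood above every WT library for 3 of 8 members (Myh6, Myh7 and Myh8), against 6.2% of genes tested.

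In injured muscle Myh6 again was the only member of 8 to pass, against 0.269% of the 12625 genes tested, with a change of 6.40 (SE 0.47, limma adjusted p = 0.00697). This call was lost when any 1 library other than injured KO replicate 2 was left out, with limma adjusted p between 0.0645 and 0.0867 and changes between 6.05 and 6.54. Myh7 changed by 2.76 (SE 0.61, limma adjusted p = 0.213) and Myh3 by 1.09 (SE 0.31, limma adjusted p = 0.316), and neither passed. The differences of Myh4 (0.15), Myh8 (0.08) and Myh2 (0.33) were smaller than their SEs of 0.32, 0.43 and 0.77. KO stood above WT without overlap for 4 of 8 members (Myh3, Myh6, Myh7 and Myh7b), against 8.29% of genes tested.

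**Figure D2:**
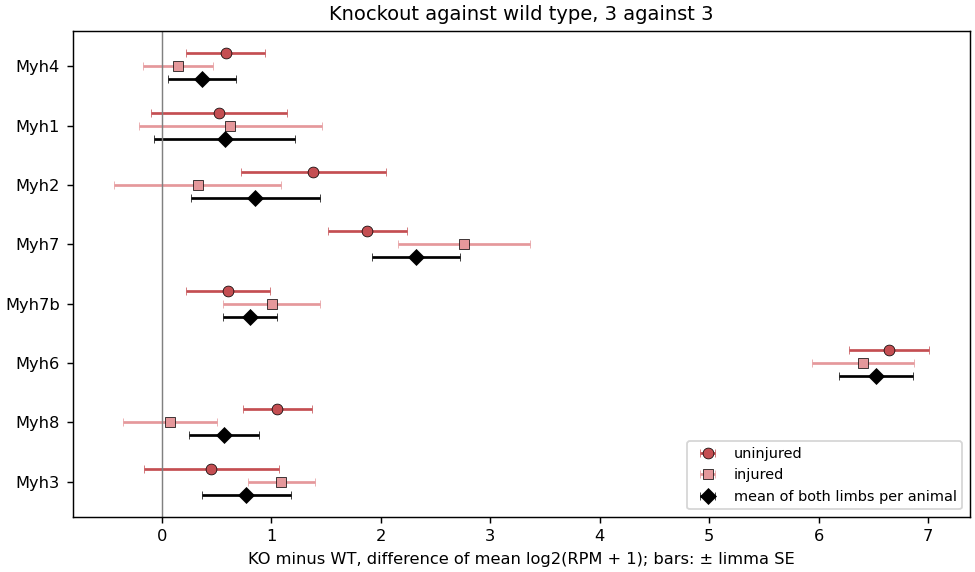
Difference between KO and WT for each member, as the difference of mean log2(RPM + 1), with bars of 1 limma SE on each side, for uninjured limbs, injured limbs and the mean of both limbs of each animal (3 against 3). The differences are all positive, some of them smaller than their SE. Those of Myh6 (6.40 to 6.64) and Myh7 (1.88 to 2.76) are the largest. The difference of both limbs is the mean of the uninjured and injured ones, so its sign follows from them.

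Averaging the limbs of each animal, for 3 KO against 3 WT animals, brought Myh7 past the threshold. Here 2 of 8 members passed, against 1.16% of the 13337 genes tested. The same 2 passed, against 4.51% of genes, with the 12 limbs taken as separate libraries, a fit that counts each animal once per limb. In the fit of the animal means, Myh6 rose by 6.52 (SE 0.34, limma adjusted p = 0.000406) and Myh7 by 2.32 (SE 0.40, limma adjusted p = 0.0411). The Myh7 call was lost without any 1 of the animals other than KO replicate 2, with adjusted p between 0.0621 and 0.203, whereas Myh6 passed in all 6 such fits.

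In limma on the animal means, members other than Myh6 and Myh7 passed only when 1 KO animal was left out. That alternative was chosen after seeing the data. Without KO replicate 2, which leaves 2 KO animals against 3, 7 of 8 members passed in limma, against 18.9% of genes tested. Myh4 was the exception (0.28, adjusted p = 0.537). The changes were then 1.39 for Myh1, 1.65 for Myh2, 0.93 for Myh8, 1.28 for Myh3 and 0.84 for Myh7b, with limma adjusted p between 0.000585 and 0.0444. That animal also had the highest mitochondrial share of the KO animals, 15.3% uninjured and 23.2% injured, against 3.63% to 6.76% in the other 4 KO libraries and 8.35% to 22.3% in the 6 WT libraries. Its injured library also had the lowest skeletal fibre marker sum of all 12 libraries (29757 RPM) and the highest endothelial (399 RPM) and Schwann cell sums (1740 RPM, against 308 and 456 RPM in the other injured KO libraries). The part of these in the levels was not tested.

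In the authors' deposited table, 1.43% of uninjured genes with a q-value and 0.893% of injured ones were below 0.05. For the uninjured limbs, the authors' deposited table calls Myh6 (log2 fold change 7.49, q = 5.11e-71), Myh7 (2.10, q = 2.55e-08) and Myh8 (1.27, q = 0.00167). For the injured limbs, the authors' deposited table calls Myh6 (7.63, q = 1.25e-42) and Myh7 (2.93, q = 0.000151). DESeq2 on the recovered reads called 4 members uninjured (Myh6, Myh7, Myh8 and Myh2, the last at adjusted p = 0.0169), against 5.32% of genes, and 3 injured (Myh3, Myh6 and Myh7), against 3.38%. With edgeR, 2 members passed uninjured (Myh6 and Myh7), against 0.441% of genes, and 1 injured (Myh6), against 0.261%. More fibres of a type and more RNA per fibre cannot be told apart in such bulk samples.

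Each gene's share of the family sum gave a similar order. Members other than Myh4 made up 3.83% ± 1.68 (SD, n = 3) of the sum in uninjured WT and 6.32% ± 4.12 in uninjured KO, and 5.33% ± 1.44 and 7.63% ± 4.28 after injury. These ranges overlapped, since KO replicate 2 held 2.39% and 2.69% and KO replicate 3 held 10.6% and 10.3%. The combined share of the slow and cardiac genes Myh6, Myh7 and Myh7b did not overlap. It was 0.201% to 0.269% in uninjured WT and 0.449% to 1.45% in uninjured KO. After injury it was 0.0657% to 0.264% in WT and 0.513% to 1.90% in KO.

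By share, uninjured KO stood above WT without overlap for Myh6 (0.184% to 0.445% against 0.000857% to 0.00388%) and Myh7 (0.261% to 0.995% against 0.191% to 0.256%). For Myh7 the gap between the lowest KO and the highest WT share was thus narrow. Myh8, separated by level, overlapped by share in the uninjured limbs. After injury Myh3 was the third member separated by share, beside Myh6 and Myh7.

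**Figure D3:**
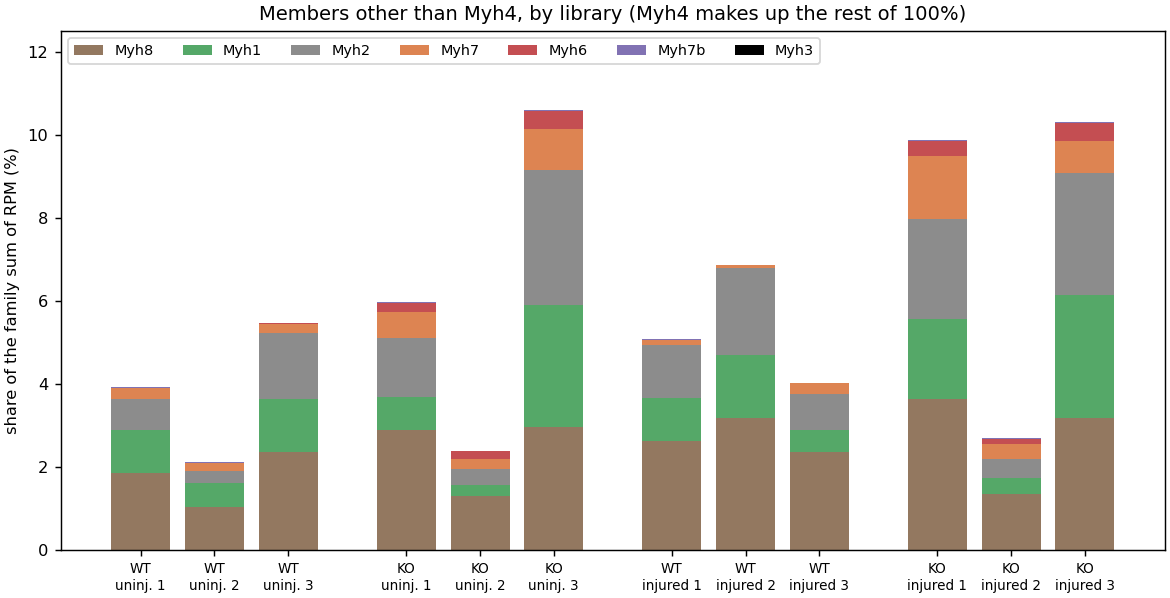
Stacked shares of the 7 members other than Myh4 in the family sum of RPM, in percent, for each library, with Myh4 making up the rest. The red Myh6 band is visible in the 6 KO libraries only, and the stacks of KO replicate 2 reach 2.39% and 2.69%, against 5.97% to 10.6% in the other KO libraries.

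No member passed a test of injury. In WT, injured minus uninjured, 0 of 8 passed in limma, edgeR and DESeq2, 0 had an unadjusted p under 0.05 in any of these, and the genes called were 0% of the 13337 tested. In KO, 0 of 8 passed in the 3 tools, against 0% of genes tested. Unadjusted values under 0.05 were reached there for Myh4 in edgeR (0.0462, change −0.85) and DESeq2 (0.0119, change −0.87), and for 0 members in limma (Myh4 change −0.46, SE 0.32). The genotype by injury interaction had 0 of 8 in each tool, again against 0% of genes, with unadjusted values under 0.05 for Myh8 in edgeR (0.0469, change −1.12) and DESeq2 (0.0281, change −1.11), and for 0 members in limma. With the animal as a block in limma, unadjusted values under 0.05 were reached in WT for Myh8 (0.0228, change 0.71) and Myh7 (0.0318, change −0.84), in the interaction for Myh8 (0.0252), and in KO for 0 members. Adjusted over all genes these were 1 in WT and 0.965 in the interaction. Of the 13337 genes tested, 172 in WT (1.29%) and 468 in KO (3.51%) had an unadjusted limma p under 0.05 without a block. For the interaction this held for 208 (1.56%). In edgeR the numbers, in the same order, were 160, 432 and 247, and in DESeq2 they were 227, 603 and 365. With the animal as a block in limma they were 319, 889 and 280.

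By level, 1 of 8 members, Myh8, was higher in all injured than in all uninjured WT libraries, against 7.48% of genes tested. In KO 1 of 8, Myh4, was lower in all injured than in all uninjured libraries, against 0.622% of genes tested, and its share of the family overlapped. The Myh4 mean fell from 76203 to 54665 RPM between those groups, and the median change of all genes was 0.29 in limma, 0.05 after upper quartile scaling.

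Within animals, the limbs moved in different directions for most members. The largest single difference was that of Myh2 in WT replicate 2, 2.69 higher in the injured limb on the log2(RPM + 1) scale, beside 0.89 and −0.81 in the other WT animals. Its uninjured limb is the library with the fewest reads. Myh7 was lower in the injured limb of WT replicates 1 and 2, by −0.86 and −1.75, and 0.09 higher in WT replicate 3. In KO it was 0.88 higher in replicate 1 and lower by −0.25 and −0.49 in the others.

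Myh8 and Myh4 kept a direction within a genotype. Myh8 was higher in the injured limb of 3 of 3 WT animals, by 0.64, 1.45 and 0.03, and lower in 3 of 3 KO animals, by −0.10, −0.68 and −0.04. Opposite directions in all WT and all KO animals were seen for 1 of 8 members and for 2.23% of genes tested. Myh4 was lower in the injured limb of 3 of 3 KO animals, by −0.50, −0.73 and −0.13, and higher in 2 of 3 WT animals.

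**Figure D4:**
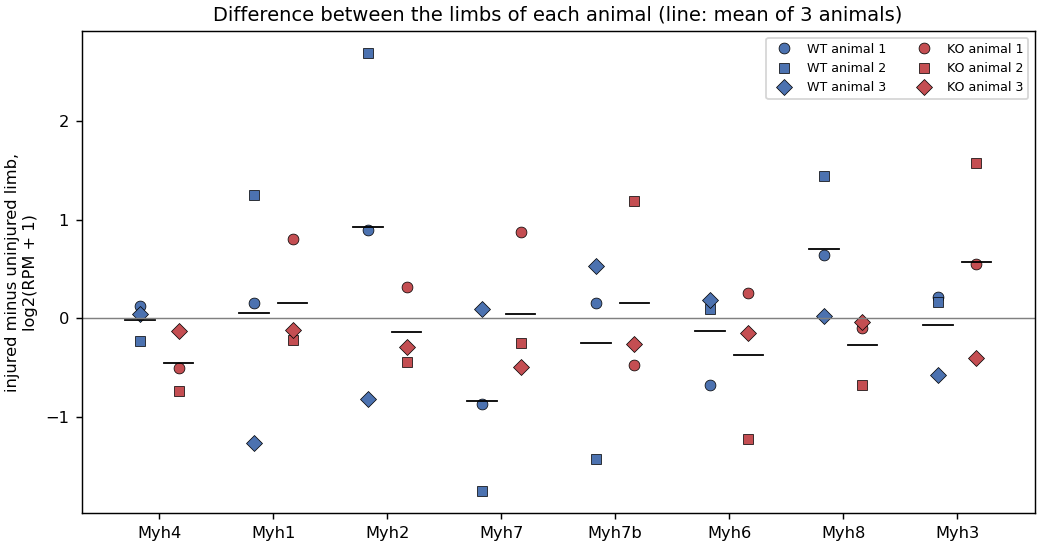
Injured minus uninjured limb of each animal, on the log2(RPM + 1) scale, for each member, with 1 point per animal (colour: genotype, shape: replicate) and a line at the mean of 3 animals. Most members have points on both sides of 0 in both genotypes, and the points of Myh8 lie above 0 in WT and below 0 in KO.

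Genes of the slow sarcomere were looked at beside Myh7, from a list of 12 (thin filament, light chain, calcium and Z-disc genes of slow fibres). In limma 0 of 12 passed in either KO against WT comparison, with 5 uninjured and 7 injured at an unadjusted p under 0.05. Over all genes tested, 14.2% uninjured and 10.3% injured were under that value, and these shares are the background for the lists that follow. Uninjured, 11 of 12 differences were positive, with a median of 0.43 beside −0.18 over all genes. Injured, 12 of 12 were positive, with a median of 1.78 beside 0.01. Tnnt1, the slow troponin T, was 203 to 264 RPM in uninjured WT and 354 to 683 RPM in KO, a difference of 1.18 (limma adjusted p = 0.145). Injured it was 50.4 to 215 RPM in WT and 355 to 938 RPM in KO, a difference of 2.39 (limma adjusted p = 0.247). Tnnc1, the slow and cardiac troponin C, differed by 1.08 uninjured (limma adjusted p = 0.154), and Tpm3, the slow tropomyosin, by 2.35 injured (limma adjusted p = 0.313).

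A list of 13 genes of the fast sarcomere was looked at in the same way. Uninjured, 0 of 13 passed in limma, 2 had an unadjusted p under 0.05, against 14.2% of all genes, and 11 were positive with a median of 0.44. Injured, 0 of 13 passed, 0 had an unadjusted p under 0.05, and 5 were positive with a median of −0.04. Actn3, the alpha-actinin of fast fibres, was 5446 to 7623 RPM in uninjured WT and 12197 to 15334 RPM in uninjured KO, a difference of 0.98 (limma adjusted p = 0.189). Mybpc2, the fast myosin binding protein C, differed by 0.97 (limma adjusted p = 0.232). After injury Actn3 was 6341 to 8103 RPM in WT and 8333 to 13709 RPM in KO, without overlap, a difference of 0.63 (limma adjusted p = 0.531). Mylpf, the fast regulatory light chain, was 22379 to 26964 RPM in injured WT and 17464 to 18171 RPM in injured KO, also without overlap, a difference of −0.49 (limma adjusted p = 0.576).

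Of 13 other cardiac and atrial genes, 5 passed the filter on low values uninjured and 5 injured, and 0 passed the test in limma, with 1 at an unadjusted p under 0.05 in each. That was Myl4, the atrial and embryonic light chain, at 6.38 to 10.8 RPM in uninjured WT and 18.5 to 24.8 RPM in KO, a difference of 1.17 (limma adjusted p = 0.173). After injury Myl4 was 7.05 to 14.8 RPM in WT and 16.9 to 22.2 RPM in KO (0.94, limma adjusted p = 0.357). Hcn4, a pacemaker channel (0.47, adjusted p = 0.720 uninjured), and Tnnt2, the cardiac troponin T (0.41, adjusted p = 0.558 injured), came next by p.

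Genes of developing or regenerating fibres, a list of 13 with 10 tested, had 0 called in limma and 1 at an unadjusted p under 0.05 (Myl4) in each state. Cdh15, the M-cadherin of muscle precursors, differed by 0.59 uninjured (limma adjusted p = 0.386). Medians were 0.25 uninjured and 0.27 injured. Thick filament partners and myosin chaperones, 15 of 17 tested, had 0 called, with 2 and 3 at an unadjusted p under 0.05. Myom2, the M-band protein of fast fibres, differed by 1.20 uninjured (limma adjusted p = 0.206), Myom1, its relative in the M-band, by 0.79 injured (limma adjusted p = 0.407), and Obsl1, a cytoskeletal linker, by −0.49 injured (limma adjusted p = 0.467).

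Regulators of fibre type, 27 of 28 tested uninjured and 28 injured, had 0 called in limma, with 3 and 2 at an unadjusted p under 0.05, shares below the 14.2% and 10.3% of all genes. Maf, of the large Maf factors linked to type IIb fibres, was 270 to 359 RPM in uninjured WT and 131 to 164 RPM in KO, a difference of −1.08 (limma adjusted p = 0.106). Nfix, a factor of the fetal muscle programme, was 44.7 to 102 RPM in uninjured WT and 152 to 191 RPM in KO, a difference of 1.17 (limma adjusted p = 0.186). Injured, Vgll3, a cofactor of TEAD proteins, differed by 0.60 (limma adjusted p = 0.396) and Thra, a thyroid hormone receptor, by 0.44 (limma adjusted p = 0.426).

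Other class II heavy chains were also looked at, 5 of 6 tested, with 0 called in limma and 2 and 3 at an unadjusted p under 0.05, against 14.2% and 10.3% of all genes. Myh13, the chain of eye muscle, was 1.25 to 3.19 RPM in uninjured WT and 5.27 to 7.32 RPM in KO (1.15, limma adjusted p = 0.223), and 1.03 to 2.10 against 3.82 to 6.83 RPM after injury (1.20, limma adjusted p = 0.218). Myh11, the smooth muscle chain, differed by 0.91 uninjured (limma adjusted p = 0.319), and Myh14, a non-muscle chain, by 0.79 injured (limma adjusted p = 0.404). Muscle spindle fibres are known to carry unusual heavy chains, and 3 of 5 spindle genes were tested uninjured and 4 injured, with 0 called and 1 at an unadjusted p under 0.05 in each. Etv4, a factor of spindle fibres, was 1.60 to 2.35 RPM in uninjured WT and 3.76 to 4.79 RPM in KO (0.84, limma adjusted p = 0.314), and differed by 0.96 injured (limma adjusted p = 0.164). Ntf3, a neurotrophin of spindles, differed by −0.91 uninjured (limma adjusted p = 0.408), and Piezo2, a stretch channel of sensory nerves, by 0.33 injured (limma adjusted p = 0.774).

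Sums of some marker lists, of other cells and of the fibre itself, also differed between the uninjured groups. The 6 skeletal fibre markers summed to 35303 to 39538 RPM in WT and 41192 to 67223 RPM in KO, without overlap. By gene, Ckm and Des did not overlap, whereas Acta1, Ttn, Neb and Mb did. Neb and Mb were below all uninjured WT libraries in KO replicate 2 and above them all in KO replicate 3. The 4 satellite cell markers (Pax7, Myf5, Calcr and Chodl) summed to 17.9 to 26.2 RPM in WT and 5.75 to 12.1 RPM in KO, with none at 0 reads in every library of a group. Chodl made that gap, since the other 3 summed to 3.72 to 8.11 RPM in WT and 2.40 to 6.03 RPM in KO, with overlap. The 5 smooth muscle markers summed to 137 to 223 RPM in WT and 225 to 340 RPM in KO, a narrow gap. Each of these markers (Myh11, Acta2, Tagln, Cnn1 and Smtn) overlapped between the genotypes on its own. Sums of endothelial, macrophage, neutrophil, fibroblast, adipocyte, Schwann cell, red cell and tendon markers overlapped between the uninjured genotypes. Among the adipocyte markers, Adipoq, Plin1 and Cfd overlapped there, whereas Lep and Cidec did not. Lep was 0.869 to 1.60 RPM in WT and 6.85 to 16.1 RPM in KO, and Cidec 11.2 to 45.2 and 53.6 to 91.4 RPM. After injury the heart marker sum did not overlap, at 3.89 to 5.18 RPM in WT and 5.30 to 6.36 RPM in KO. Without Tnnt2, which developing muscle also makes, the other 7 heart markers summed to 0.861 to 2.10 RPM in WT and 0.486 to 2.71 RPM in KO, with overlap. The sums of the other lists overlapped after injury. Chodl, Tnnt2, Lep and Cidec were singled out after their values were seen. The part of these differences in the levels of the family was not tested.

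Across the 12 libraries, which share the depth, the scaling and the genotype split, the members fell into patterns that are given as descriptions. On log2(RPM + 1), Myh2 followed Myh8 (Pearson r = 0.92) and Myh1 (r = 0.90), and Myh6 followed Myh7 (r = 0.90). Myh4 followed no other member closely, with r between −0.13 for Myh3 and 0.56 for Myh6. Among 9166 other genes with a mean of at least 5 RPM, those most like Myh7 were Tnnt1 (r = 0.97), Tpm3 (r = 0.96) and Sln (r = 0.96), the last encoding sarcolipin, an inhibitor of the calcium pump. Sln averaged 13.1 and 9.45 RPM in uninjured and injured WT and 33.0 and 68.5 RPM in KO.

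Those most like Myh6 were BC002163 (r = 0.99), Gm3375 (r = 0.99) and Gm13453 (r = 0.98). BC002163 averaged 0.285 and 0.404 RPM in uninjured and injured WT and 49.0 and 51.2 RPM in KO, and Gm3375 averaged 0.0759 and 0.151 RPM in WT and 22.1 and 22.8 RPM in KO. Those most like Myh4 were Tcap, the titin cap of the Z-disc (r = 0.95), Relb (r = 0.93) and Gas8 (r = 0.93). Myh1 was most like Atmin, Samm50 and Xpnpep1 (r = 0.95 for each), Myh2 like Gapdh, Gstp1 and Ryk (r = 0.97 for each), and Myh8 like R3hcc1 (r = 0.96) and Ank1 (r = 0.95). Myh3 was most like Daxx, Dhx29 and Pdxdc1 (r from 0.95 to 0.96), and Myh7b like Mfng, Mapk8ip1 and Clstn1 (r from 0.91 to 0.93).

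Flag-Myf6 peaks of the myotube ChIP library were set against the family by position, with the authors' fold enrichment as the peak's own value. All 8 members had a peak inside the gene or within 10 kb of it, and 2 of them, Myh7b and Myh6, had 1 inside. Of 21896 protein-coding genes, 25.8% had such a peak and 17.3% had one inside. Of the 1998 genes whose span is as long as the members', 27.5% had a peak within 10 kb. Since the chromosome 11 genes stand side by side, their windows overlap and 1 peak was counted for both Myh2 and Myh1. The list rests on 1 library and 1 control, so no replicate error can be given.

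The strongest of these peaks lay before Myh3, at chr11:67075029-67075383, with its summit 3042 bases before the start site and a fold enrichment of 14.5, higher than that of 92.8% of the 12898 peaks. A second one before Myh3, at chr11:67077512-67077733, had its summit 675 bases before the start and a fold of 4.83. Myh3 is the member with most peaks, some of them beyond the end of the gene, and it was among the least read members in muscle. The peaks come from myotubes and the levels from limb muscle, and a link between them was not tested. The peak nearest to a start site was that of Myh1 at chr11:67199541-67199757, 416 bases before the start, with a fold of 5.09.

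Between the end of Myh3 and the start of Myh2 lay 7 peaks over 68.7 kb, with folds from 3.67 to 11.7. Over the whole span from Myh3 to Myh8, 230 kb, there were 9 peaks, or 39.1 per Mb, against 7.33 per Mb on chromosome 11 as a whole. The median fold of all peaks was 7.68. Beyond Myh4 and Myh8, peaks with folds of 8.02 and 9.65 lay after the ends of the genes.

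On chromosome 14 a peak at chr14:54997446-54997610 lay 2875 bases before the outermost start of Myh7 with a fold of 6.39, and a peak inside Myh6 at chr14:54946089-54946215, 20483 bases after its start, had a fold of 4.51, higher than that of 6.87% of peaks. Both peaks had folds below the median of all peaks. Myh6 and Myh7 were the members with the largest difference between KO and WT in muscle, and a link to these myotube peaks was not tested. Myh7b on chromosome 2 had a peak 4688 bases before its start with a fold of 11.2 and 1 inside the gene, 732 bases after it, with a fold of 6.68. None of these peaks falls in the promoter windows printed above.

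**Figure D5:**
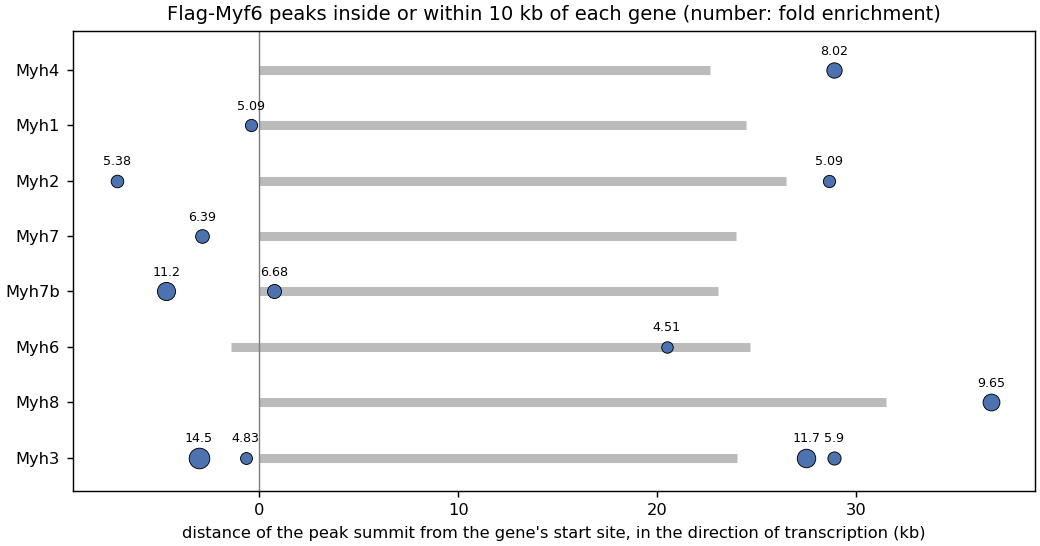
Flag-Myf6 peaks inside or within 10 kb of each gene, by the distance of the summit from the gene's start site in kb, with the gene as a grey bar, point size and the number giving the authors' fold enrichment. Myh3 has 4 peaks with folds from 4.83 to 14.5, and the Myh6 peak, inside the gene, has the lowest fold, 4.51.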

How the data were processed

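The authors deposited, for uninjured and for injured libraries, a table of 49585 genes with a value per library in RPM, which sums to 1000000 in each library. The same deposited tables give a log2 fold change and its error, and for each gene a raw p-value beside a q-value, per the file headers. The deposited log2 fold change is WT over KO and was turned to KO minus WT. HISAT2 2.1.0, SAMtools, featureCounts, DESeq2, Bowtie 1.1.0 and MACS2 2.1.0.20140616 and the builds mm10 and GRCm38.p5 are named, per the submitters' processing notes. Peaks carry a pileup (signal height), a fold enrichment (a ratio to local background) and, as −log10, significance values, per the file headers. Libraries were made from Trizol-extracted RNA, per the labels' protocols.

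Whole reads were recovered from the RPM steps, where 100% of tested values came out whole within 0.1 read. On these reads edgeR 4.0.16 called 55 genes uninjured and 33 injured, and DESeq2 1.42.0 called 663 and 427. The main test was limma 3.58.1 (R 4.3.3) with a trend on log2(RPM + 1), which understates changes of low genes, over genes that reached 1 RPM in 3 or more libraries, two-sided, Benjamini-Hochberg over all genes tested. KO against WT used the 6 libraries of a state, and injury and interaction used all 12. All 8 members passed the filter in every comparison. The scripts were tested on simulated data.

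Members and gene lists were chosen with earlier results of these data known. Named genes are the members, any listed gene past the threshold or else the 2 with the smallest p per state, and the 3 genes most correlated with each member. For Myh8, 1 of these is not reported here. Alternatives were other scalings, filters and pseudocounts, edgeR, DESeq2, a replicate block, each library left out and, chosen after seeing the data, each animal left out of the animal means. Replicate numbers join different animals of WT and KO (same-number correlations 0.04 to 0.37 uninjured, −0.60 to −0.30 injured), so the numbers do not pair them. Limbs are paired by the animal number (−0.23 to 0.28 in WT, 0.02 to 0.63 in KO). The mean same-number correlation was 0.02 in WT and 0.39 in KO. These are correlations of deviations from the mean of the 3 libraries of a group. Such deviations sum to 0, so the means for other numbers, −0.01 and −0.19, largely follow from the first values. The pairing thus rests on the labels and is not shown by the WT values. Levels per coding length were not computed, for want of protein lengths, and peak sequences were not read.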

Additional observations from a re-analysis of the deposited data

Results flagged for a closer look

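Myh8 was higher in the injured than in the uninjured limb of all 3 WT animals and lower in all 3 KO animals. The difference between the genotypes in this limb difference was −0.98 (SE 0.55) on the log2(RPM + 1) scale. It was tested as the genotype by injury interaction and did not pass, with an unadjusted limma p of 0.0997 (adjusted p = 1). With the animal as a block, which pairs the limbs, the unadjusted limma p was 0.0252 and the adjusted p 0.965. In WT replicate 3 and KO replicate 3 the limbs differed by 0.03 and −0.04 only.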

How the results depend on the processing

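Of 40 member changes over the 5 planned comparisons, 20 kept their direction under every alternative run, among them 12 of the 16 KO against WT changes, Myh6 and Myh7 included.

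Members called, 1 of 8 uninjured in limma, became 2 with upper quartile scaling and 2 with scaling outside mitochondrial genes. They became 2 with edgeR and 4 with DESeq2. Genes called were then 122, 199, 55 and 663 of the 12460 tested, in that order, against 35 in the main fit. Members called were 3 in the authors' deposited table, where 331 of 23129 genes were called. With 1 library left out they were 1 to 2, and 2 only without KO replicate 2, where 32 of 12277 genes were called. The filter of 1 RPM in every library gave 0, because it drops Myh6 and Myh3 from the test and leaves 6 members. Of these, 2 uninjured and 1 injured had an unadjusted limma p under 0.05, beside 1426 of 10040 genes uninjured and 1089 of 11206 injured. Injured, 1 of 8 became 3 with DESeq2 (427 of 12625 genes called) and 2 with all 12 libraries in 1 fit (56 of 13337). It became 2 in the authors' deposited table (225 of 25201) and 0 with that filter. With 1 library left out it was 0 to 3, and 3 only without KO replicate 2, where 2343 of 12312 genes were called. For both limbs, 2 of 8 became 1 to 7 with 1 animal left out, and 7 only without KO replicate 2, where 2523 of 13337 genes were called. With the replicate block, where the numbers do not pair the animals, members called became 4 uninjured (Myh2, Myh6, Myh7 and Myh8) and 0 injured (Myh6 at adjusted p = 0.107), and genes called 752 and 0. By animal, the block changed no call of injury or interaction, although 2 members in WT injury and 1 in the interaction then had an unadjusted limma p under 0.05, against 0 without it. Genes of all kinds under that value went from 172 to 319 in WT injury and from 208 to 280 in the interaction. Genes called with 1 library left out ran from 3 to 84 uninjured and from 0 to 2343 injured, against 35 and 34, and in the animal means, where 155 genes were called, from 18 to 2523 with 1 animal left out, an alternative chosen after seeing the data.

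These changes turned sign with 1 library left out, or for both limbs with 1 animal left out, given as lowest to highest. The cause was not tested. KO minus WT uninjured: Myh1 −0.23 to 1.24, Myh3 −0.068 to 1.21. Injured: Myh2 −0.18 to 1.20, Myh8 −0.20 to 0.54. Both limbs: Myh1 −0.11 to 1.39. WT injury: Myh1 −0.34 to 0.59, Myh3 −0.19 to 0.11, Myh4 −0.16 to 0.12, Myh6 −0.36 to 0.13, Myh7b −0.53 to 0.25. KO injury: Myh1 −0.57 to 1.06, Myh2 −0.86 to 0.74, Myh3 −0.19 to 1.09, Myh6 −0.73 to 0.19, Myh7 −0.47 to 0.59, Myh7b −0.15 to 0.36, Myh8 −0.55 to 0.19. Interaction: Myh1 −0.62 to 1.01, Myh3 −0.12 to 1.16, Myh6 −0.60 to 0.32, Myh7b −0.10 to 0.68. Upper quartile scaling turned Myh1 to −0.039 in WT injury, −0.14 in KO injury and −0.10 in the interaction, and Myh7 to −0.25 and Myh7b to −0.10 in KO injury. Scaling outside mitochondrial genes turned Myh1 to −0.055 in WT injury. With edgeR, Myh7 was −0.038 and Myh7b −0.11 in KO injury, and Myh1 −0.15 and Myh6 0.10 in the interaction. With DESeq2 these were −0.046, −0.12, −0.14 and 0.080.

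The precision is limited by 3 animals per genotype, by the depth of uninjured WT replicate 2, where Myh6 rests on 1 read and Myh3 on 2, and by RPM that is not corrected for length. Levels per coding length were not run.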
